A study of Rattus norvegicus with 16 samples.

Results

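Genes of calcium handling at the sarcoplasmic reticulum were examined in left ventricles of rats with an aortocaval fistula (ACF), a surgical shunt between aorta and vena cava that loads the heart with volume. The members were 10 genes, Atp2a2, Pln, Sln, Slc8a1, Ryr2, Casq2, Trdn, Jph2, Hrc and Dhrs7c, and every probe set annotated with exactly 1 of these symbols was kept. This gave 22 probe sets of 10 genes, out of 31042 probe sets tested and 14217 genes with a probe set of their own. No filter on dim signals was applied, so all 22 were tested.

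The 16 arrays carried whole left ventricle RNA of adult male Sprague-Dawley rats, 4 of them from controls and the rest from rats 8, 16 or 24 weeks after the ACF was made (4 per time). No label says whether an array held the RNA of 1 rat or of several, so p-values measure the spread between these arrays. The labels name no allele or drug for any of these groups. The titles call the controls baseline, whereas the study compared with sham-operated rats, so neither the age of the controls nor whether they had surgery is known here, and age and surgery cannot be told apart from ACF. For the 24-week group the titles give 24 weeks but the descriptions count on from 24 to 25, 26 and 27, and rats whose ACF was closed again were not analysed here.

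In each heartbeat, calcium that enters through the surface membrane opens ryanodine receptors of the sarcoplasmic reticulum, and the released calcium starts contraction. The muscle relaxes as the SERCA pump returns calcium to the reticulum and the sodium-calcium exchanger expels the remainder across the surface membrane. Small membrane proteins restrain the pump, and a group of proteins in the lumen and at the junction with the surface membrane stores calcium and holds the release channels in place. Changes of these proteins are a classical subject in heart failure.

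Values are log2 intensities of probe sets, centred on the median of each array, so a difference of 1 is a doubling and values of different probe sets cannot be set against each other. Differences were tested with limma across all probe sets, and a probe set passed at a Benjamini-Hochberg adjusted p under 0.05. The medians of the deposited arrays lay at 2 levels. The higher level, from 6.13 to 6.17, held the control group (4 arrays), 3 of the 8-week and 2 of the 16-week arrays. The lower, from 5.92 to 5.96, held 1 of the 8-week and 2 of the 16-week arrays and the whole 24-week group. Control and 24-week arrays shared no level, so values within 1 level exist only for the other comparisons with control. The tissue label was borne out by 12 markers of ventricular cardiomyocytes, whose mean per array lay between 13.25 and 13.80, among the brightest signals of the arrays. RNA quality was read as the 3' minus the 5' signal of 2 control genes. For GAPDH it was 0.37 to 0.67 on control arrays, 0.41 to 0.64 at 8 weeks, 0.44 to 0.71 at 16 weeks and 0.56 to 0.75 at 24 weeks. For beta-actin the difference was larger, at 1.253 to 1.876 on control arrays and 1.5811 to 1.8362 at 16 weeks. It was 1.3762 to 1.8437 at 8 weeks and 1.4215 to 1.7378 at 24 weeks. The part of RNA quality in the results was not tested.

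Promoter sequences of 8 of the 10 genes were found in RefSeq (GRCr8), and none was at hand for Sln and Dhrs7c. The 250 bases before the annotated start are shown for 3 genes that stand for the different outcomes described below, Hrc (which fell), Slc8a1 (higher without passing) and Atp2a2 (log2 fold changes near 0), with capitals marking matches to the motifs searched on both strands. The motifs were the E-box, written CANNTG, the TEAD motif, written CATTCC, the motif of GATA factors, written AGATAA, the TATA box, written TATAAA, and the MEF2 and CArG motifs. The letters of a TATA box can lie within a MEF2 match, but no matches overlapped in the windows of the members.
Hrc: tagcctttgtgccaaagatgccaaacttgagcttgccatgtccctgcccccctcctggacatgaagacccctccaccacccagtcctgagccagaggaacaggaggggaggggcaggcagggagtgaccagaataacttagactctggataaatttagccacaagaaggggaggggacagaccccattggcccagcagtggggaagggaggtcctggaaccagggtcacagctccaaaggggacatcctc
Slc8a1: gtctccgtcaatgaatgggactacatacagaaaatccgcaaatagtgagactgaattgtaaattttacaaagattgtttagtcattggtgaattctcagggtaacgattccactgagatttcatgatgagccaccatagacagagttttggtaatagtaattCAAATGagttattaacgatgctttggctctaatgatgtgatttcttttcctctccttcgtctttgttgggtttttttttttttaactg
Atp2a2: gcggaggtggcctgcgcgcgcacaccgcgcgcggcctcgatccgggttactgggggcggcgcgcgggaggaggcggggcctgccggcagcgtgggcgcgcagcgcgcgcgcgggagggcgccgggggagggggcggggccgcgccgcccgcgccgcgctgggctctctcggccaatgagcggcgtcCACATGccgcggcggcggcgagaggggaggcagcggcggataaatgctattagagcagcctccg
The windows lie at chr1:104949500-104949749 (plus strand) for Hrc, chr6:19023309-19023558 (plus strand) for Slc8a1 and chr12:39733269-39733518 (plus strand) for Atp2a2. The Hrc window held no match, and those of Slc8a1 and Atp2a2 held 1 E-box each, a motif found in 65.5% of 33469 rat promoters of this length. Pln and Ryr2 also had 1 E-box each. Casq2 was the only one of the 8 with a MEF2 match, found in 2.96% of promoters, besides 2 E-boxes, and Jph2 and Trdn had no match. A match of letters describes the sequence and is not evidence of binding.

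At 16 weeks, when the study places the failing phase, 2 of the 22 member probe sets passed and both fell, those of Dhrs7c and Hrc. This is 9.09% of the members, beside 1.85% of all probe sets that fell (3.62% rose and 5.47% changed in either direction). The share changed in either direction depended on brightness, and was 1.87% of probe sets with a mean under 6. It was 13.2% between 10 and 12, where Dhrs7c lies, and 13.7% between 12 and 13, where Hrc lies. No member rose. The median log2 fold change of the 22 probe sets was -0.15, against -0.01 over all probe sets. With only the brightest probe set of each gene the median was -0.03, and 5 of the 10 were below 0. In the other comparisons no member passed, at 8 weeks (background 0.0322% called in either direction), at 24 weeks (0.438%), at 16 against 8 weeks (0%) or at 24 against 16 weeks (0.0129%). Without adjustment, p was under 0.05 for 1, 7 and 3 of the 22 at 8, 16 and 24 weeks against control, beside 6.2%, 19.5% and 15.4% of all probe sets, and for 5 at 16 against 8 weeks and 3 at 24 against 16 weeks, beside 7.07% and 7.81%. The methods' t-test, adjusted in the same way, called 0 members at 16 weeks. The study itself required a fold change above 1.5 and p under 0.05, with no adjustment stated, so this count is not that of its own rule. Dhrs7c and Hrc, at 0.342 and 0.652 times control at 16 weeks, exceeded that fold change. Both were among the 7 counted above by limma without adjustment.

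**Figure D1:**
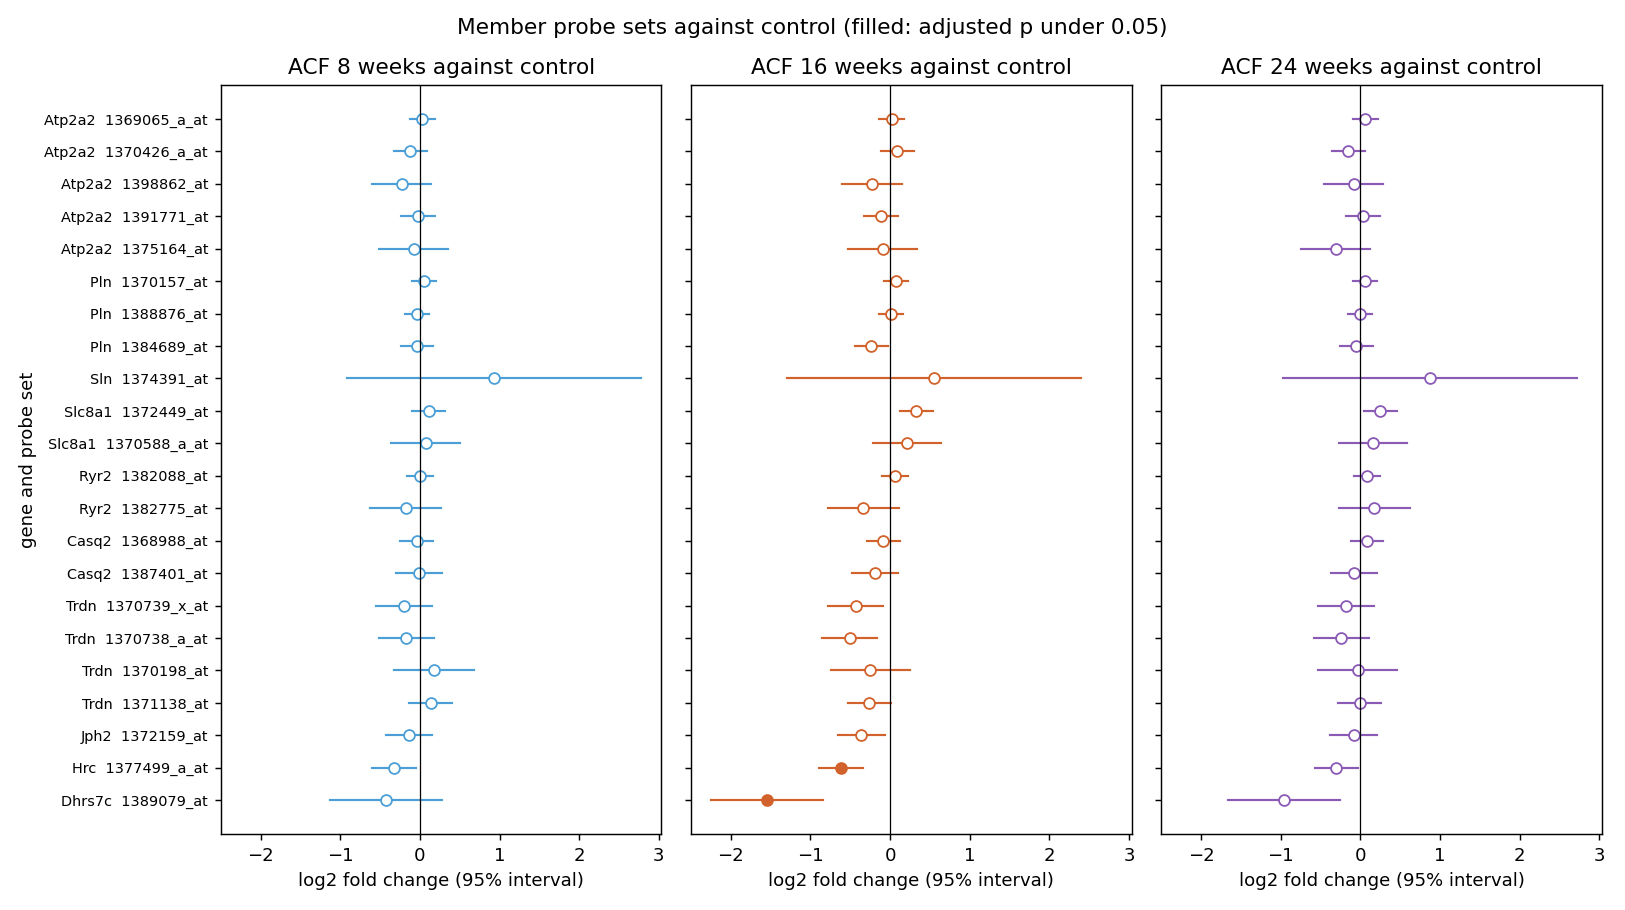
Log2 fold change (horizontal axis) of the 22 member probe sets (vertical axis) at 8, 16 and 24 weeks against control, with 95% intervals from the limma model. Filled points passed an adjusted p under 0.05, which only Hrc (-0.62) and Dhrs7c (-1.55) at 16 weeks did.

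Dhrs7c encodes a short-chain dehydrogenase/reductase of the sarcoplasmic reticulum. Its probe set read 11.54, 11.46, 11.43 and 11.16 on control arrays, 10.97, 10.78, 10.94 and 11.20 at 8 weeks, 8.96, 9.61, 10.44 and 10.40 at 16 weeks, and 10.88, 9.22, 10.86 and 10.80 at 24 weeks. All arrays at 16 and at 24 weeks lay below every control array, whereas 1 array at 8 weeks reached into the control range. The log2 fold change against control was -1.55 at 16 weeks (SE 0.33, adjusted p = 0.0127), a signal 0.342 times that of control. At 24 weeks it was -0.95 (SE 0.33, adjusted p = 0.18) and at 8 weeks -0.43 (SE 0.33, adjusted p = 0.966). Lying wholly below control was shared by 5.42% of all probe sets at 16 weeks and 4.51% at 24 weeks, and the exact permutation p of 0.0286 is the smallest that 4 arrays against 4 can give.

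The 16-week arrays of Dhrs7c differed by array level. The pair at the higher level read 8.96 and 9.61, and the pair at the lower level 10.44 and 10.40, still below all controls. The pair at the higher level also had the higher means of 6 macrophage markers, 8.70 and 8.46 against 7.91 and 8.04. Array level and macrophage signal therefore cannot be told apart on the 16-week arrays. With only the arrays at the higher level the log2 fold change was -2.12 (adjusted p = 0.000287), and with the level in the model it was -1.82 (adjusted p = 0.00741). All 16-week arrays also lay below all 8-week arrays, which held for 1.47% of probe sets, yet the difference of -1.12 between these groups had an adjusted p of 0.474. Within the higher level it was -1.75 (adjusted p = 0.00379), with 2 arrays at 16 weeks and 3 at 8 weeks. Within the lower level the difference between 24 and 16 weeks was 0.02 (adjusted p = 1.0), against 0.59 over all arrays (SE 0.33, adjusted p = 0.698). The fit within the lower level held 2 arrays at 16 weeks and 4 at 24 weeks. Of the 24-week arrays, replicate 2 read 9.22 and the others 10.80 to 10.88.

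Hrc encodes the histidine-rich calcium-binding protein of the reticulum's lumen, which binds both triadin and the SERCA pump. Control arrays read 12.32, 12.46, 12.42 and 12.40, those at 8 weeks 11.87, 12.05, 12.13 and 12.25, those at 16 weeks 11.43, 11.68, 11.91 and 12.13, and those at 24 weeks 12.06, 11.89, 12.24 and 12.22. Every ACF array at each time was below every control array. The log2 fold change was -0.62 at 16 weeks (SE 0.13, adjusted p = 0.0119), or 0.652 times control. It was -0.32 at 8 weeks (SE 0.13, adjusted p = 0.696), where 2.16% of all probe sets lay wholly below control, and -0.30 at 24 weeks (SE 0.13, adjusted p = 0.283). At the higher level alone the 16-week value was -0.85 (adjusted p = 0.00301), and -0.74 with the level in the model (adjusted p = 0.0047). The groups at 16 and 8 weeks overlapped, with a difference of -0.29 (adjusted p = 0.677).

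Markers of other cells moved in the same comparison. Of 6 macrophage markers 5 rose at 16 weeks, and their mean per array was 7.91 to 8.70 there and 6.74 to 7.14 in control. Of 8 fibroblast markers 4 rose, with means of 10.34 to 10.78 at 16 weeks and 9.55 to 10.27 in control (1 rose with the values as deposited, and 3 with cyclic loess, quantile normalization or the level in the model). None of the 12 markers of ventricular cardiomyocytes passed, with a median log2 fold change of -0.08 and means of 13.25 to 13.71 at 16 weeks and 13.69 to 13.77 in control, but 2 fell with the level in the model and 1 with the values as deposited. Most of these markers lay above 13, a range where only 1.59% of all probe sets passed at 16 weeks. Whether their signals were saturated was not tested. The array with the lowest cardiomyocyte mean, replicate 1 at 16 weeks, was also the lowest of all 16 arrays for 6 member probe sets, those of Dhrs7c, Hrc and Jph2, the brightest of Casq2 and Atp2a2 and the dimmer of Ryr2, and the highest for 3, the bright pair of Pln and the dim one of Slc8a1. Replicate 2 at 16 weeks, with a cardiomyocyte mean of 13.62, was likewise the lowest for 6 and the highest for 1. Replicate 1 at 8 weeks, at the lower mean of 13.55, was the lowest for 1 and the highest for 1. Without replicate 1 at 16 weeks the fall was -1.25 for Dhrs7c (adjusted p = 0.0436) and -0.50 for Hrc (adjusted p = 0.039). On the remaining 16-week arrays the macrophage means, 8.46, 7.91 and 8.04, were still above those of control. The part of macrophages, fibroblasts and cardiomyocytes in the falls was not tested. In whole tissue, fewer cells of a type cannot be told apart from less RNA per cell.

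**Figure D2:**
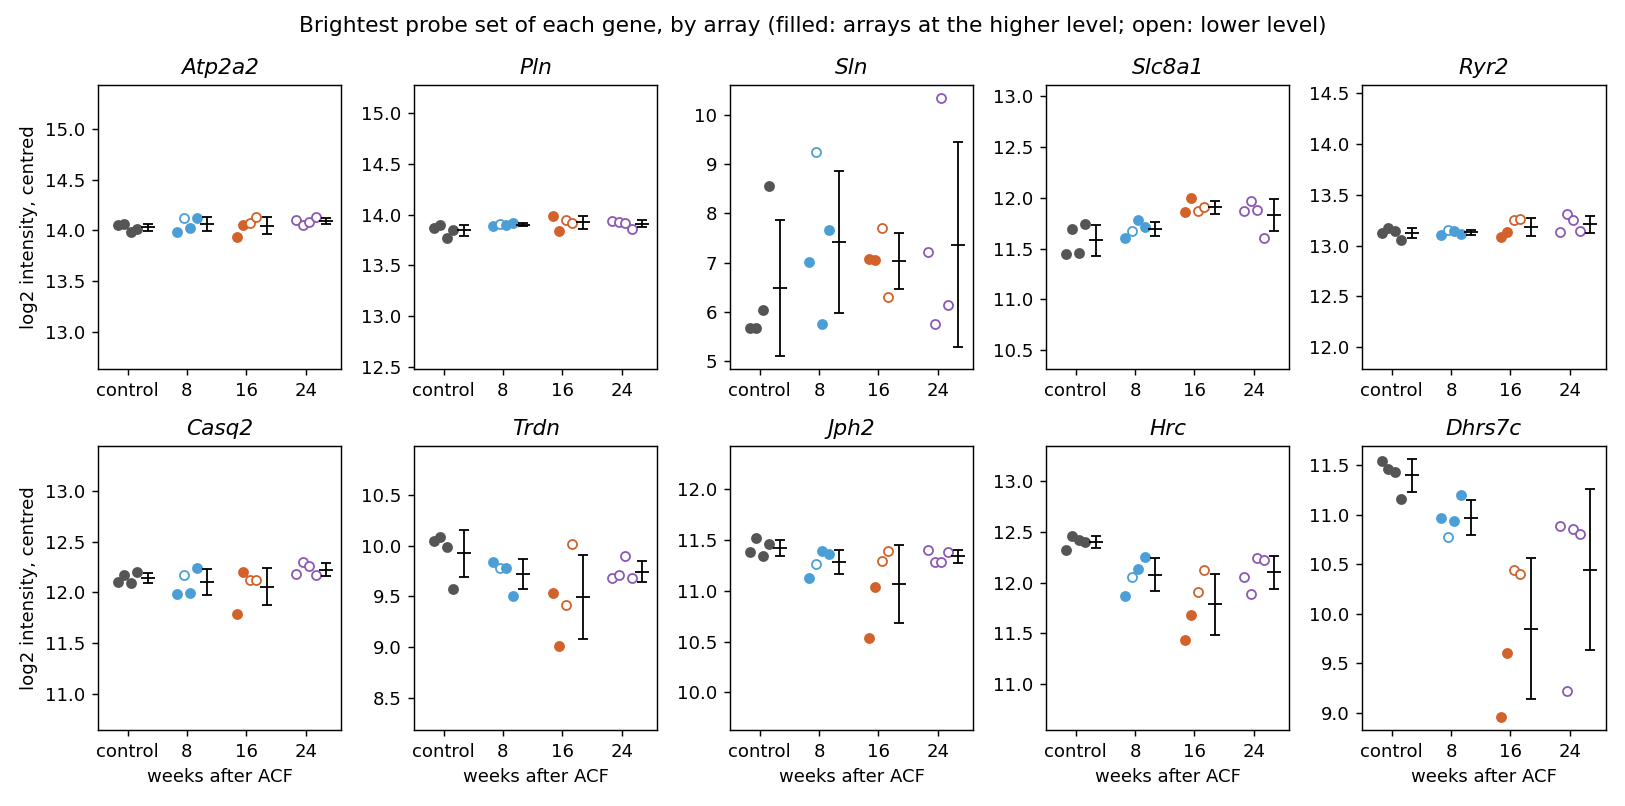
Centred log2 intensity (vertical axis) of the brightest probe set of each member on every array, for control and for 8, 16 and 24 weeks after ACF (horizontal axis), with bars for the mean ± SD of 4 arrays. Filled points are arrays at the higher level and open points those at the lower. Dhrs7c lay between 8.96 and 10.44 at 16 weeks, below all controls, while Atp2a2, Pln and Ryr2 stayed within a range of 0.26 over all 16 arrays. Each vertical axis spans 2.8 log2 units, or more for Sln.

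Jph2, Trdn, Casq2 and Ryr2, which encode proteins of the junction and of the calcium store, were measured by 9 probe sets, and none passed. Jph2, whose product junctophilin-2 tethers the reticulum to the surface membrane, read 11.39, 11.52, 11.34 and 11.46 in control, 11.13, 11.27, 11.39 and 11.36 at 8 weeks, 10.54, 11.03, 11.29 and 11.39 at 16 weeks and 11.40, 11.29, 11.29 and 11.38 at 24 weeks. The other groups lay close together, and only replicates 1 and 2 at 16 weeks were below 11.1. The log2 fold change at 16 weeks was -0.36 (SE 0.14, adjusted p = 0.152). It passed in 4 of 21 alternatives, namely the values as deposited (-0.48, adjusted p = 0.0347), the level of the arrays in the model (-0.51, adjusted p = 0.0373), the higher level alone (-0.64, adjusted p = 0.0226) and without replicate 4 at 16 weeks (-0.47, adjusted p = 0.0498).

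Trdn encodes triadin, which links calsequestrin to the release channel, and has 4 probe sets that need not read the same isoforms. The brightest read 10.05, 10.08, 9.98 and 9.58 in control, 9.84, 9.78, 9.78 and 9.51 at 8 weeks, 9.53, 9.01, 9.41 and 10.02 at 16 weeks and 9.68, 9.71, 9.90 and 9.68 at 24 weeks. Replicate 4 stood apart in both groups, high at 16 weeks and low in control, so the groups overlapped. The log2 fold change at 16 weeks was -0.43 for this probe set (SE 0.16, adjusted p = 0.148) and -0.51 for the next (SE 0.16, adjusted p = 0.0827). The dimmer pair gave -0.25 and -0.26 (adjusted p = 0.619 and 0.269). The brightest passed in 2 alternatives, without replicate 4 of the 16-week group (-0.61, adjusted p = 0.0176) and with the values as deposited (-0.55, adjusted p = 0.0416). The next passed in these (adjusted p = 0.00724 and 0.0261) and in 4 more of the 19 alternatives that tested it, with quantile normalization, array weights, the higher level alone or without control replicate 4 (adjusted p = 0.049, 0.0417, 0.0355 and 0.0368). The brightest carries a suffix by which the manufacturer marks probes that can bind more than 1 transcript.

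Casq2 encodes cardiac calsequestrin, the main calcium store of the lumen. Its brightest probe set read 11.78, 12.20, 12.12 and 12.12 at 16 weeks and 12.10, 12.17, 12.09 and 12.20 in control, with group means of 12.10 at 8 weeks and 12.22 at 24 weeks. Only replicate 1 at 16 weeks was below the control range in that group, and the log2 fold change was -0.08 (95% interval -0.29 to 0.12, adjusted p = 0.701). The second probe set gave -0.19 (95% interval -0.48 to 0.09). Ryr2, the release channel, read 13.08, 13.13, 13.25 and 13.26 at 16 weeks and 13.13, 13.17, 13.15 and 13.05 in control, a log2 fold change of 0.06 (95% interval -0.11 to 0.22). The groups overlapped. Its second, dimmer probe set spread from 9.86 to 11.14 and gave -0.34 at 16 weeks (SE 0.21, adjusted p = 0.421) and 0.51 at 24 against 16 weeks (SE 0.21, adjusted p = 0.603).

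Atp2a2 encodes SERCA2, the pump that refills the reticulum. Its brightest probe set read 14.05, 14.07, 13.98 and 14.02 in control, 13.98, 14.12, 14.02 and 14.12 at 8 weeks, 13.93, 14.05, 14.08 and 14.13 at 16 weeks and 14.10, 14.06, 14.08 and 14.13 at 24 weeks. All groups overlapped within a range of 0.20. The log2 fold changes against control were 0.03, 0.02 and 0.06 at 8, 16 and 24 weeks, with a 95% interval of -0.14 to 0.18 at 16 weeks, and -0.03, -0.10 and -0.14 with the values as deposited. A second probe set, at a mean of 11.63, read 11.46, 11.56, 11.52 and 11.57 at 24 weeks, below every control array (11.69, 11.60, 11.77 and 11.65) and every 16-week array (11.85, 11.68, 11.62 and 11.90). The differences were -0.15 (SE 0.10, adjusted p = 0.494) and -0.24 (SE 0.10, adjusted p = 0.603), and 1.39% of all probe sets lay wholly below the 16-week arrays. With the values as deposited the difference from control was -0.35 (adjusted p = 0.0475). The 3 dimmer probe sets of Atp2a2 lay between -0.31 and 0.04 in the comparisons with control, with no adjusted p under 0.49.

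Pln encodes phospholamban, the main restraint of the pump in the ventricle. Its brightest probe set read 13.99, 13.84, 13.94 and 13.92 at 16 weeks and 13.87, 13.90, 13.77 and 13.85 in control, with means of 13.90 at 8 weeks and 13.91 at 24 weeks. The groups overlapped, and the log2 fold change at 16 weeks was 0.08 (95% interval -0.07 to 0.23, adjusted p = 0.618; -0.04 with the values as deposited). The second bright probe set gave 0.01 (95% interval -0.15 to 0.16). The dim probe set, at a mean of 5.49, gave -0.24 (SE 0.10, adjusted p = 0.18).

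These bright probe sets lie in the range of brightness where the smallest share of probe sets passed at 16 weeks. The brightest of Atp2a2 ranked 16 of all probe sets by mean and lay 0.36 to 0.68 below the highest value on its array, and the bright pair of Pln ranked 26 and 34. Of the 126 probe sets with a mean above 13, which include the brightest of Ryr2, 1.59% passed at 16 weeks. Between 12 and 13, where Hrc and the brighter Casq2 probe set lie, 13.7% of 248 passed, and between 10 and 12, where Dhrs7c lies, 13.2% of 1452. The median SD within groups was 0.087 above 13, 0.142 between 12 and 13 and 0.167 between 10 and 12. The files hold no flag for saturated signals, so whether these probe sets were saturated was not tested, and their intervals describe signal.

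**Figure D3:**
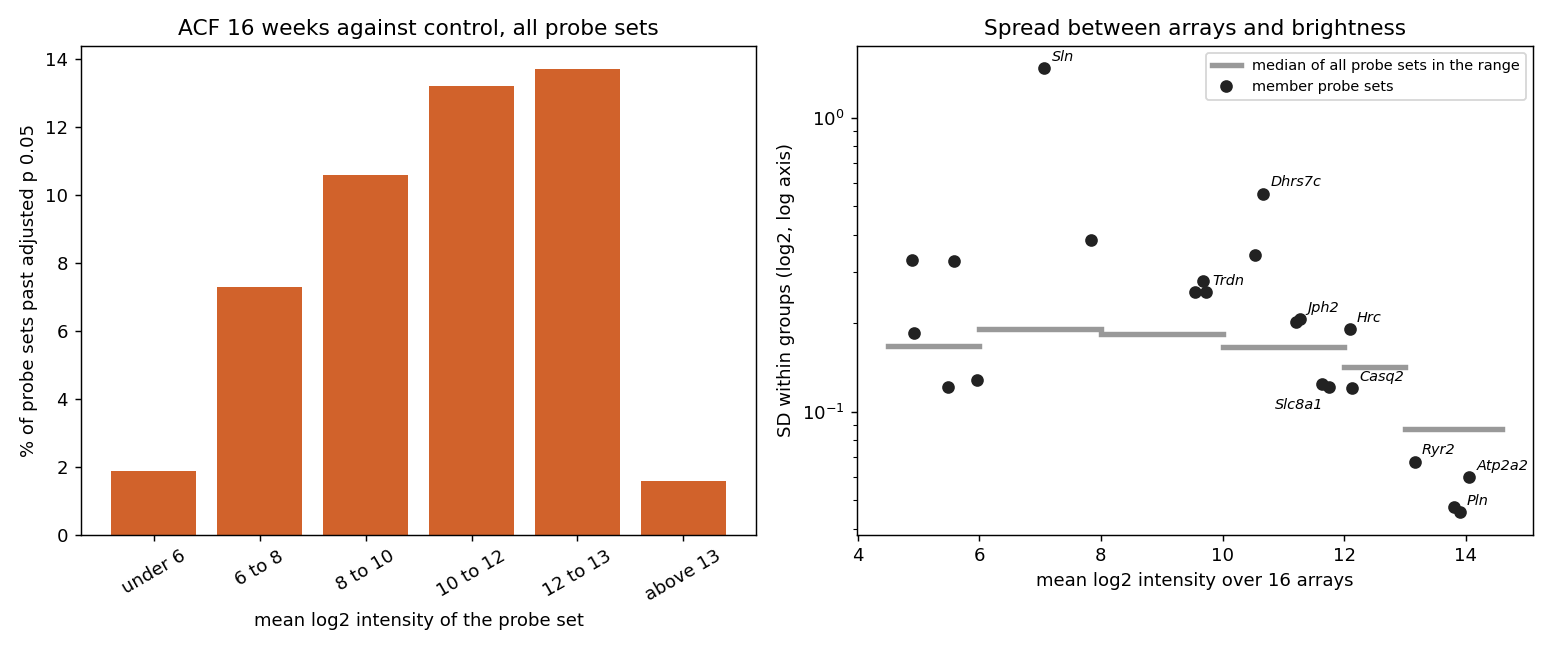
On the left, the percentage of all probe sets with an adjusted p under 0.05 at 16 weeks against control (vertical axis) by mean log2 intensity (horizontal axis), which was 13.7% between 12 and 13 and 1.59% above 13. On the right, SD within groups (log axis) against mean log2 intensity for the 22 member probe sets (points, the brightest of each gene named) and the median of all probe sets in each range (bars).

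Slc8a1 encodes the sodium-calcium exchanger of the surface membrane. Its brighter probe set read 11.45, 11.69, 11.45 and 11.74 in control, 11.61, 11.68, 11.78 and 11.71 at 8 weeks, 11.86, 12, 11.87 and 11.91 at 16 weeks and 11.87, 11.97, 11.88 and 11.60 at 24 weeks. All 16-week arrays lay above all control arrays, as did 7.65% of all probe sets, and above all 8-week arrays, as did 2.26%. The log2 fold change at 16 weeks was 0.33 (SE 0.10) and missed the threshold (adjusted p = 0.0601), and it was 0.35 within the higher level (adjusted p = 0.112). It passed in 5 of 21 alternatives, with adjusted p between 0.0319 and 0.271 over all of them. At 24 weeks it was 0.25 (SE 0.10, adjusted p = 0.228) and at 8 weeks 0.11 (SE 0.10, adjusted p = 0.975). The dim probe set, at a mean of 5.58, gave 0.21 at 16 weeks (SE 0.20, adjusted p = 0.624).

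Differences between members on the same array do not depend on how arrays are centred. Of 9 such differences, tested by exact two-sided permutation, none passed after adjustment. A difference alone at 0.0286, the smallest exact p of 4 arrays against 4, has an adjusted p of 0.257 and could not pass. Slc8a1 minus Atp2a2 was -2.07, -2.05, -2.21 and -2.22 at 16 weeks and -2.61, -2.38, -2.53 and -2.27 in control, without overlap, a difference of 0.31 (exact p = 0.0286, adjusted p = 0.257). Pln minus Atp2a2 differed from control by 0.02, 0.06 and -0.00 at 8, 16 and 24 weeks (exact p = 0.4, 0.486 and 0.886). The SD was 0.022 in control, and 0.056, 0.124 and 0.062 at 8, 16 and 24 weeks. At 16 weeks replicate 1 stood at 0.05 and the others at -0.21, -0.13 and -0.21.

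Sln encodes sarcolipin, a restraint of the pump that in rodents is found mainly in the atria. Its probe set was the most variable member, at 5.68, 5.66, 6.04 and 8.55 in control, 7.02, 9.24, 5.75 and 7.66 at 8 weeks, 7.06, 7.05, 7.71 and 6.30 at 16 weeks and 7.21, 5.75, 10.35 and 6.14 at 24 weeks. Single arrays were high in control, at 8 and at 24 weeks, and all groups overlapped. The log2 fold change was 0.93, 0.54 and 0.88 at 8, 16 and 24 weeks with an SE of 0.88 each (adjusted p = 0.979, 0.798 and 0.673).

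The high arrays of Sln were also high in the atrial light chains, though not in every atrial marker. Myl7, the atrial regulatory light chain, read 12.39 on control replicate 4, 12.96 on replicate 2 at 8 weeks and 12.60 on replicate 3 at 24 weeks, the arrays with the highest Sln, and between 5.48 and 12.32 on the others. Myl4, the atrial essential light chain, read 9.65, 11.11 and 12.01 on the same arrays and at most 9.17 elsewhere. Kcna5, an atrial potassium channel, was also the highest of its group on each of them (7.44, 8.21 and 7.70). Nr2f2 was so on 2 of them, and Nppa and Kcnj3 on 1, while Kcnj3 was the lowest of its group on replicate 2 at 8 weeks (6.32). Myl7 was also above 11 on control replicate 2 and replicate 4 at 8 weeks, where Sln read 5.66 and 7.66. The mean of 6 atrial markers per array was 7.19 to 9.50 in control, 8.02 to 10.18 at 8 weeks, 8.11 to 8.92 at 16 weeks and 8.26 to 10.27 at 24 weeks, and 1 of the 6, Nppa, which encodes atrial natriuretic peptide and is also made by loaded ventricles, rose at 16 weeks (2.21, SE 0.45, adjusted p = 0.00887). The part of atrial tissue in the Sln signal was not tested.

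**Figure D4:**
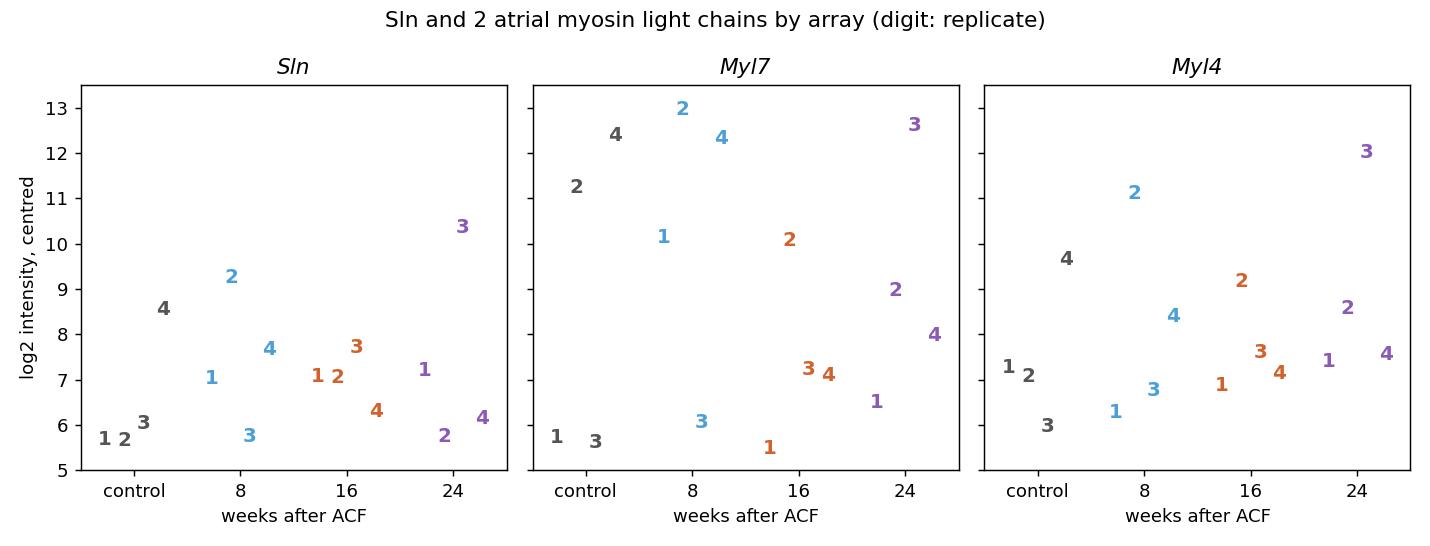
Centred log2 intensity (vertical axis) of Sln, Myl7 and Myl4 on each array by group (horizontal axis), with the digit giving the replicate. The arrays with the highest Sln, replicate 4 in control (8.55), replicate 2 at 8 weeks (9.24) and replicate 3 at 24 weeks (10.35), were the highest of their groups for Myl7 and Myl4 as well.

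The probe sets most like each member over the 16 arrays were found by the root mean square difference after centring each on its control mean. The choice used these same arrays, so fold changes near those of the member follow from it. For Dhrs7c these were LOC102547411, Ddit4l, an inhibitor of mTOR signalling, and Rbfox1, a splicing regulator, at 0.28, 0.29 and 0.32. All of them fell at 16 weeks, with log2 fold changes of -1.51, -1.43 and -1.21. For Hrc they were Pink1, a mitochondrial kinase, Fahd2a and Akr1e2, all at 0.11 to 0.12, which also fell, with -0.53, -0.55 and -0.61. For Slc8a1 they were Cltc, the clathrin heavy chain, Ccdc50 and Ywhaz, at 0.08, of which Cltc rose by 0.37 (adjusted p = 0.0265). For Sln they were Mybphl, an atrial protein related to myosin-binding proteins, Myl4 and Il1a, at 0.93 to 0.94.

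Other genes of calcium handling were read from 5 lists of the pathway, with 1 probe set per gene. Of 14 measured partners of the release unit, 1 fell and none rose at 16 weeks (median log2 fold change 0.00). That gene was S100a1, a calcium sensor that promotes both pump and release channel, which read 8.17, 8.41, 8.24 and 8.28 at 16 weeks and 8.77, 8.87, 8.84 and 8.87 in control, without overlap (-0.56, SE 0.13, adjusted p = 0.0213). With the level in the model none of the 14 fell and 1 rose. Of 9 other isoforms of pumps, channels and calsequestrin, 1 rose, Ryr3, another ryanodine receptor, at 7.46, 6.95, 6.61 and 6.43 at 16 weeks and 5.34, 6.02, 5.91 and 6.16 in control (1.01, SE 0.28, adjusted p = 0.0415). With the values as deposited none of the 9 rose and 1 fell.

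Of 18 kinases, phosphatases and inhibitors that act on phospholamban and the release channel, 2 fell and none rose at 16 weeks (median -0.07). With the values as deposited 4 fell and none rose, with quantile normalization 3 fell, and with the level in the model 4 fell and 2 rose. Ppp1r1a, inhibitor 1 of protein phosphatase 1, read 6.55, 6.12, 6.44 and 6.61 at 16 weeks and 7.81, 7.68, 7.16 and 7.06 in control (-1.0, SE 0.17, adjusted p = 0.00328). It was -0.94 at 24 weeks (SE 0.17, adjusted p = 0.0303) and -0.95 at 8 weeks, where it did not pass (SE 0.17, adjusted p = 0.0722). Prkaca, which encodes 1 of the catalytic subunits of protein kinase A, fell by 0.50 at 16 weeks (SE 0.11, adjusted p = 0.0153). At 24 weeks 1 of the list fell, Ppp1r1a, and 1 rose, Camk2b, a subunit of calmodulin kinase II, by 0.84 (SE 0.18, adjusted p = 0.0448). With the level in the model neither passed at 24 weeks. Camk2g and Rcan1, a calcineurin inhibitor, had -0.43 (adjusted p = 0.0524) and 0.86 (adjusted p = 0.055) at 16 weeks.

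Of 6 genes of mitochondrial calcium transport, 1 rose at 16 weeks, Mcub, an inhibitory subunit of the uniporter, at 5.74, 5.39, 4.99 and 4.62 and in control 4.21, 4.05, 4.43 and 4.23 (0.96, SE 0.22, adjusted p = 0.0164). These signals are dim, and whether they were above background was not tested. With the values as deposited none of the 6 rose and 2 fell. Of 14 genes of calcium entry and extrusion at the surface membrane, none passed at 16 weeks and 4 had an unadjusted p under 0.05, with a median of -0.09 (with the values as deposited 1 fell, and with the level in the model 1 rose). Cacna1h and Cacna1g, which encode T-type calcium channels, had 0.94 (SE 0.39, adjusted p = 0.183) and 0.57 (SE 0.22, adjusted p = 0.146), Cacna1c, the pore of the L-type channel, -0.24 (SE 0.11, adjusted p = 0.233), and Stim1, the sensor of store-operated calcium entry, -0.26 (SE 0.10, adjusted p = 0.153). At 8 weeks no gene of the 5 lists passed, and by limma without adjustment p was under 0.05 for 1 partner of the release unit, 1 other isoform, 4 of the kinases, phosphatases and inhibitors, 0 mitochondrial genes and 1 gene of the surface membrane.

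**Figure D5:**
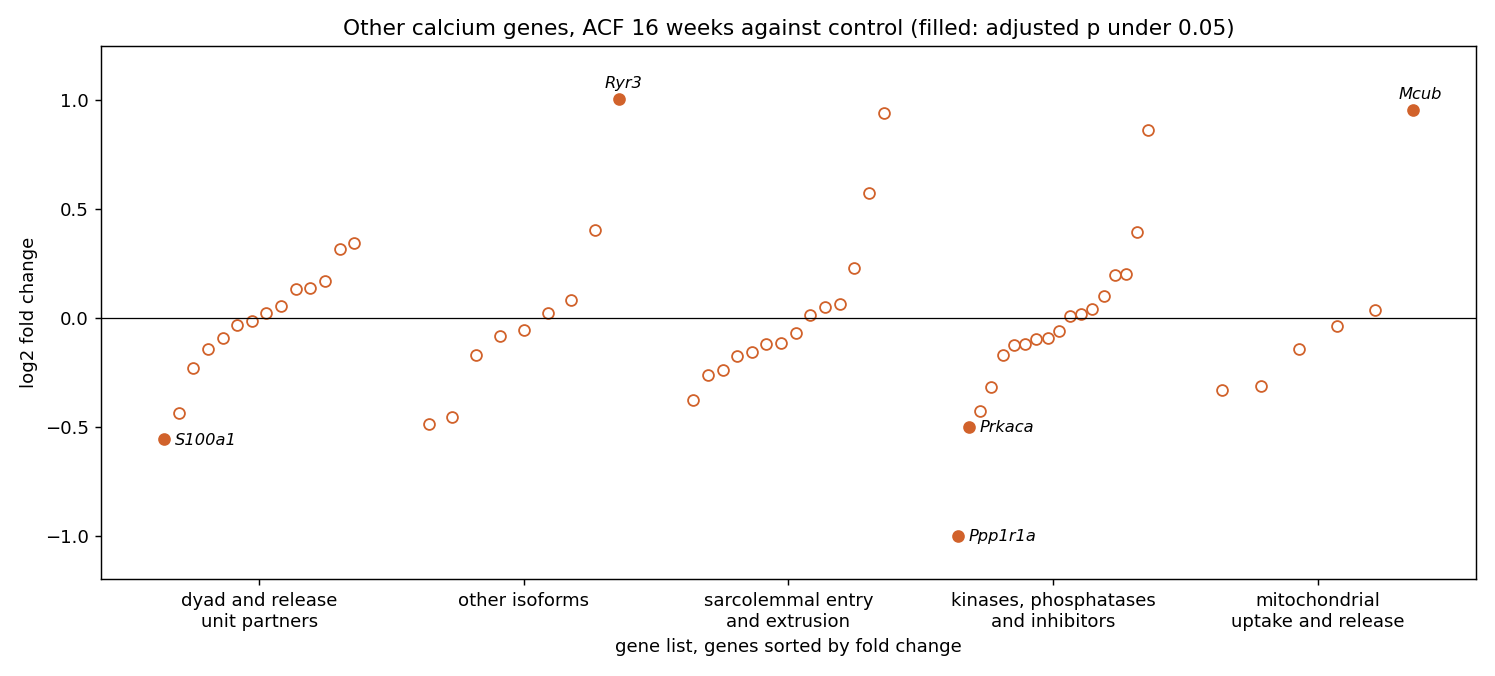
Log2 fold change at 16 weeks against control (vertical axis) of the genes of 5 lists of calcium handling outside the members, sorted within each list (horizontal axis). Filled points passed an adjusted p under 0.05. S100a1 (-0.56), Ppp1r1a (-1.0) and Prkaca (-0.50) fell, and Ryr3 (1.01) and Mcub (0.96) rose.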

How the data were processed

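The authors hybridised left ventricle RNA to Affymetrix rat arrays, and deposited log2 values, 1 for each probe set, which the authors had made with RMA in Affymetrix Expression Console 1.2 (submitters' processing notes). The methods name another rat array than the one whose probe sets are deposited. Of 31099 probe sets, 57 manufacturer controls were left out, and each array was centred on its median. Groups came from the sample labels. Replicates within groups correlated at 0.983 to 0.995 and none was identical.

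Group means were estimated by limma 3.58.1 (R 4.3.3) from the 16 arrays together, with Benjamini-Hochberg adjustment over 31042 probe sets and a threshold of 0.05. Differences between members on 1 array had exact two-sided permutation tests, adjusted over 9. The number of arrays limits the precision. The functions were tested on simulated data.

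The members and lists were chosen with earlier results of these data known. The text names every probe set of the 10 members, up to 4 genes of each list with the smallest p, and the 3 probe sets most like a member. Atrial markers and Vwf were named after their values were seen. Lists were the 5 of calcium genes, and markers of ventricular and atrial cardiomyocytes, fibroblasts, macrophages, endothelium, smooth muscle and pericytes, skeletal muscle and adipocytes. In the last 3, no gene passed at 16 weeks, and 1 of 4 endothelial markers, Vwf, rose.

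Alternatives were the scaling (values as deposited, cyclic loess, quantile), the methods' t-test and threshold (fold above 1.5), fits on 8 arrays, trend and robust priors, array weights, the replicate number or array level as a block, 1 level only, the upper 50% of probe sets, 1 probe set or the mean per gene, and leaving out each array. The fit of 24 against 16 weeks within the lower level was chosen after seeing the data. Figures used matplotlib 3.10.9. Promoters came from RefSeq (GRCr8) and no other coordinates were used.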

Additional observations from a re-analysis of the deposited data

Results flagged for a closer look

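Among 88 groups of 4 arrays, 4 held a single array whose gap to its nearest neighbour exceeded Dixon's critical share of the group's range at 95%, and chance alone gives about 1 in 20 such groups. Dhrs7c read 9.22 on replicate 2 at 24 weeks, against 10.80 to 10.88 on the other arrays of the group. Sln read 8.55 on replicate 4 of the control group, against 5.66 to 6.04 on the others. The brightest probe set of Trdn read 9.90 on replicate 3 at 24 weeks, against 9.68 to 9.71. The dim probe set of Slc8a1 read 4.88 on replicate 3 of the control group, against 5.61 to 5.73.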

How the results depend on the processing

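The number of members passing at 16 weeks against control, 2 as reported, was 5 with the values as deposited, 4 with array weights, 4 with only the arrays at the higher level, and 0 by the methods' t-test adjusted over all probe sets, by which Hrc had an adjusted p of 0.143 and Dhrs7c of 0.131. Leaving out 1 array gave 2 to 5, with 4 without control replicate 4 and 5 without replicate 4 at 16 weeks. At 24 weeks the count was 3 with the values as deposited and 0 as reported. At 16 against 8 weeks it was 1 at the methods' threshold and 1 within the higher level. As deposited, the median log2 fold change of all probe sets was -0.06, -0.13 and -0.21 at 8, 16 and 24 weeks against control. The replicate number as a block left 2 members passing at 16 weeks, and the deviations of arrays with the same number correlated at -0.27 to 0.24, so the numbers did not pair the arrays. Pln minus Atp2a2, ACF 24 weeks against control, was -0.00 as reported and 0.0905 when all probe sets of each gene were averaged. Of 1040 alternative values of the brightest probe set of each member, 1024 kept their side of the threshold, 14 newly passed, 2 no longer passed, and no called value changed sign, while 67 values that passed in neither setting did. Among the dimmer probe sets, the second of Trdn newly passed at 16 weeks in 6 alternatives and the second of Atp2a2 at 24 weeks in 1. No detection calls were used here, so whether the 5 member probe sets with a mean under 6, of Atp2a2, Pln, Slc8a1 and Trdn, were above background was not tested. Nor was this tested for the genes of the lists, of which Mcub, Ryr3 and Camk2b had control medians under 6.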
